A study of Homo sapiens with 97 samples.

Results

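Counts assigned to 5 nuclear copies of mitochondrial genes were followed across an APEX-seq atlas of HEK293T cells. The copies are MTATP6P1, MTND2P28, MTCO1P12, MTCO3P12 and MTND1P23, named pseudogenes on chromosome 1, and their parents are the mitochondrial genes MT-ATP6, MT-ND2, MT-CO1, MT-CO3 and MT-ND1. They were chosen by name, with earlier results of these data known. The copies make up 5 of the 60675 gene rows of each count table, and every table holds all of them. Each copy was set beside its parent in the same libraries, which asks whether reads counted for a copy behave as an RNA of the nuclear genome or as the mitochondrial RNA.

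Pieces of mitochondrial DNA have been copied into nuclear chromosomes during evolution, and such insertions are called NUMTs. A copy of this kind has no mitochondrial promoter beside it, and its reading frame is not translated with the mitochondrial code. The copies followed here are annotated as unprocessed pseudogenes. The parents are transcribed inside mitochondria as long polycistronic RNAs and stay in the matrix: MT-ND1 and MT-ND2 encode subunits of complex I, MT-CO1 and MT-CO3 subunits of cytochrome c oxidase, and MT-ATP6 a subunit of ATP synthase. Where a short read fits both the copy and the parent, an aligner has no base on which to choose between them.

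HEK293T is a human embryonic kidney line. Each of 9 stable lines carried 1 fusion of APEX2, a peroxidase that tags nearby RNA with biotin: MITO in the mitochondrial matrix, OMM on the outer mitochondrial membrane, NES in the cytosol, ERM on the cytosolic face of the endoplasmic reticulum (ER), KDEL in the ER lumen, NucPore at the nuclear pore, LMA at the nuclear lamina, NIK in the nucleolus and NLS in the nucleus. Labelled cells received biotin-phenol and hydrogen peroxide, and unlabelled cells of the same line received biotin-phenol without peroxide. OMM and NES cells were also treated with cycloheximide, puromycin or CCCP, in labelled and unlabelled libraries, or with nocodazole for 3, 6, 9 and 30 min and 2 h, with unlabelled libraries at 3 and 30 min. MITO cells also gave labelled and unlabelled libraries of total RNA, without poly(A) selection, and 1 technical repeat. Nuclear and cytosol fractions of HEK293T cells were sequenced without labelling. Every group held 2 libraries except the repeat, 97 libraries in all, and nothing in the labels says whether a line was 1 clone.

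The 7 pieces of the insertion with a name lie head to tail on the + strand of chromosome 1, within 5861 bases at chr1:629062-634922 (GRCh38), in the order of the mitochondrial genome. MTND1P23 (ENSG00000225972, 372 bases) is at chr1:629062-629433 and MTND2P28 (ENSG00000225630, 1044 bases) at chr1:629640-630683. MTCO1P12 (ENSG00000237973, 1543 bases) is at chr1:631074-632616, and the deposited tables call this identifier hsa-mir-6723, after a microRNA that lies inside it on the other strand. MTATP6P1 (ENSG00000248527, 681 bases) is at chr1:633696-634376 and overlaps its neighbour MTATP8P1. MTCO3P12 (ENSG00000198744, 547 bases) is at chr1:634376-634922 and is named RP5-857K21.11 in the tables.

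**Figure D1:**
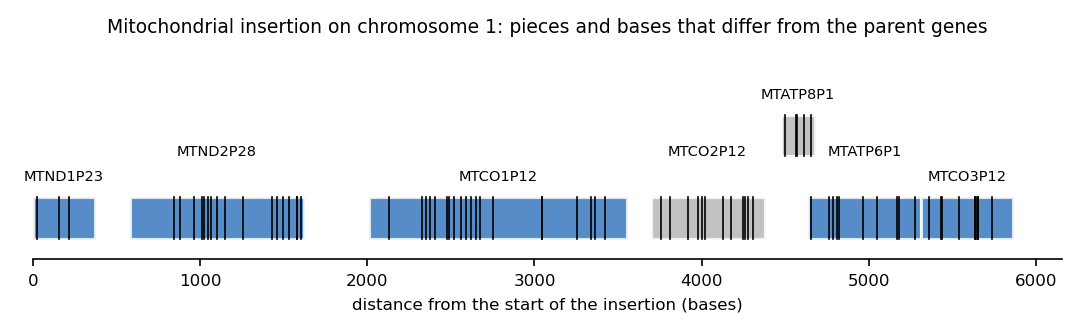
Map of the insertion to scale, with distance from its first base (bases) on the horizontal axis; blue boxes, the 5 members; grey boxes, the other named pieces MTCO2P12 and MTATP8P1; black ticks, bases that differ from the parent gene. Every piece has stretches with no tick, and MTND1P23 has only 3 ticks.

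The copies are near-identical to their parents. MTND1P23 differed from MT-ND1 at 3 of 352 aligned bases, an identity of 99.1%, and 20 of its 372 bases lay outside the alignment. MTATP6P1 differed at 10 of 681 bases from MT-ATP6 (98.5%), MTND2P28 at 17 of 1042 bases from MT-ND2 (98.4%), and MTCO3P12 at 10 of 547 bases from MT-CO3 (98.2%). MTCO1P12 differed at 20 of 1542 bases from MT-CO1 (98.7%) and carried 1 inserted base. Reads of these libraries were pairs of 75 bases, and windows of that length were taken within the aligned part of each copy. Those with no difference from the parent made up 51.8% of the windows in MTND1P23, 36.6% in MTCO1P12, 34.4% in MTND2P28, 28.0% in MTATP6P1 and 22.0% in MTCO3P12. By the reference sequence, a read end from such a window carries no base that tells copy from parent. The sequences below are shown because each holds the most isolated difference of its copy, beside the same stretch of the parent. Isolation is the distance between the neighbouring differences on either side, with gaps and the ends of the alignment counted as neighbours. For every copy shown except MTATP6P1, an end of the alignment is such a neighbour, and in MTND2P28 the next difference falls inside the stretch. All are from GENCODE 29 (GRCh38), 5′ to 3′, with capitals at the bases that differ. Substitutions are counted from 1 at the parent gene's first base, with the parent's base first.

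The MTND1P23 stretch, chr1:629237-629311, differs from MT-ND1, chrM:4067-4141, by A798G:
MTND1P23: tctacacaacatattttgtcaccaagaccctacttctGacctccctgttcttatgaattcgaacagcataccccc
MT-ND1: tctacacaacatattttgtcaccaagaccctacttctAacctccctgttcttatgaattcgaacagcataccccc

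The MTND2P28 stretch, chr1:629869-629943, differs from MT-ND2, chrM:4699-4773, by T267C and A300G:
MTND2P28: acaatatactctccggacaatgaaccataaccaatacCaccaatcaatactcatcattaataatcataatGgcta
MT-ND2: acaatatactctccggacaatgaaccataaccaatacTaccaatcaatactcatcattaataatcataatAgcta

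The MTCO1P12 stretch, chr1:631156-631230, differs from MT-CO1, chrM:5986-6060, by G120A:
MTCO1P12: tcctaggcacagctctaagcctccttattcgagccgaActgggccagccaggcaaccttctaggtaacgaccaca
MT-CO1: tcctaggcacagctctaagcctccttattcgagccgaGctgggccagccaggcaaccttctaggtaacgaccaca

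The MTATP6P1 stretch, chr1:633992-634066, differs from MT-ATP6, chrM:8823-8897, by A334G:
MTATP6P1: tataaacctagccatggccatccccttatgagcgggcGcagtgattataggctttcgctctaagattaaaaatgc
MT-ATP6: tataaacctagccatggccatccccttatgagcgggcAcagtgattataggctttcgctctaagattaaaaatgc

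The MTCO3P12 stretch, chr1:634761-634835, differs from MT-CO3, chrM:9592-9666, by A423G:
MTCO3P12: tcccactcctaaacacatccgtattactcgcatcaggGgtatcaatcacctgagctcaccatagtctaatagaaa
MT-CO3: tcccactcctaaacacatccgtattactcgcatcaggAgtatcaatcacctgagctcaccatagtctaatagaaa

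In each of these pairs 1 or 2 bases in 75 separate the copy from the parent gene of the reference genome. The count tables hold no reads, so the bases of the reads counted for a copy were not seen. Nor was the mitochondrial sequence of HEK293T cells, which may differ from the reference at these bases.

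Libraries of the 9 constructs held 9330259 to 76714068 counts, drug libraries 22749527 to 55763066, nocodazole libraries 15473060 to 33966883 and fractions 34961110 to 44973261. The shallowest total RNA library held 2835969 counts. Levels are given as CPM, a gene's counts relative to the library's total count after scaling by TMM. Mitochondrial genes took 45.6% and 58.8% of the counts of labelled MITO libraries, 1.08% to 4.35% of those of the other labelled construct libraries and 1.65% to 8.47% of those of unlabelled ones. LIN28B and NEFM, expressed in this line, had 60.8 to 213 and 42.0 to 253 CPM in the construct libraries. HBB was at 0 throughout those libraries, PTPRC and ALB had a median of 0, and COL1A1, a fibroblast gene, had a median of 10.8. PAX2 lay between 0 and 5.64.

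The 5 members held nearly all counts of their class. Of 388 rows named as nuclear copies of mitochondrial mRNA genes, 326 had no count in the 36 construct libraries and 62 had at least 1. The members held 621788 of 627317 counts of the class, or 99.1%. They were chosen with earlier results of these data known, so this share is a description and not a test. MTATP6P1 alone held 80.3% with 503554 counts, MTND2P28 14.96% with 93829 and MTCO1P12 3.72% with 23312. MTCO3P12 had 655 counts and MTND1P23 438 in the 36 libraries together, so values of these members rest on few reads. Among the other pieces of the same insertion, MTCO2P12 had 890 counts and MTATP8P1 29.

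Levels of the members differed by far more than their lengths. Per kilobase, the median level over the 36 libraries was 409 CPM for MTATP6P1, 50.4 for MTND2P28, 9.29 for MTCO1P12, 0.825 for MTCO3P12 and 0.370 for MTND1P23. By ratio, their parents lay much closer together on that scale, at 3590 CPM for MT-ATP6, 1621 for MT-ND2, 4528 for MT-CO1, 3829 for MT-CO3 and 1285 for MT-ND1. MTATP6P1 and MTCO3P12 abut on the chromosome, and the ratio of their median levels per kilobase was larger than that of the highest to the lowest parent. Pieces of the insertion were thus not counted at a common level.

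**Figure D2:**
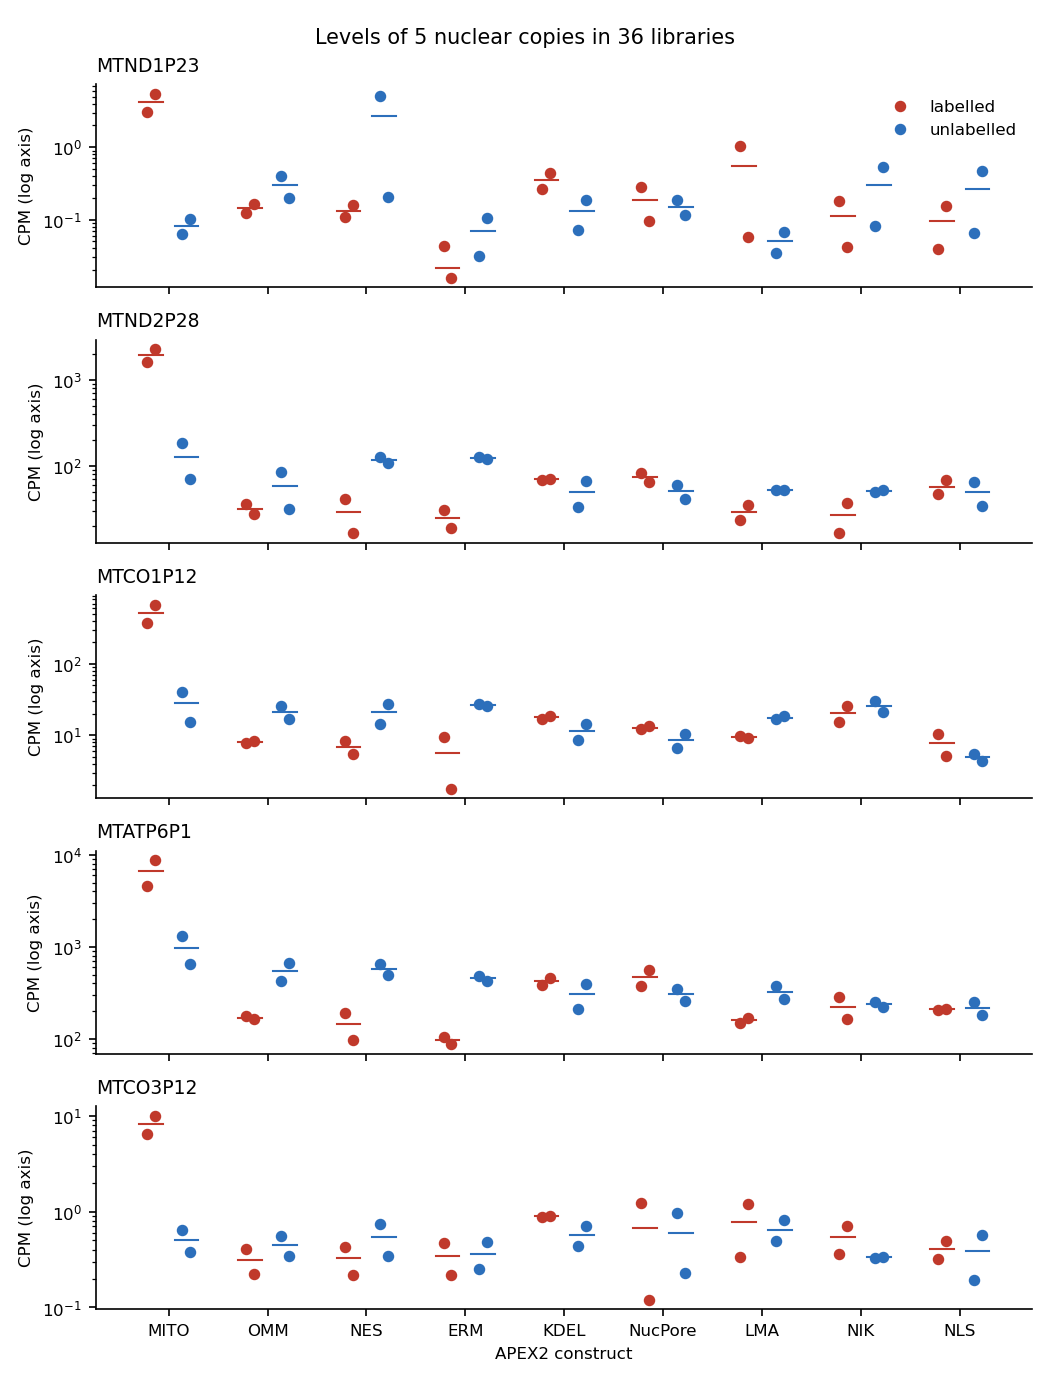
Level of each member (CPM, log axis) in the 36 libraries of 9 constructs, labelled left of unlabelled; points, libraries; lines, group means of 2 libraries. MITO labelled libraries stand highest for MTATP6P1, MTND2P28, MTCO1P12 and MTCO3P12; the single 0, of MTND1P23 in ERM labelled 2, is drawn at the foot of its axis.

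All 5 copies were at their highest mean level in labelled MITO libraries, where the matrix is tagged. MTATP6P1 had 4595 and 8768 CPM in labelled MITO libraries, against 1303 and 649 in unlabelled ones. MTND2P28 had 1618 and 2274 CPM labelled, against 186 and 70.5 unlabelled. MTCO1P12 had 373 and 675 CPM labelled, against 40.4 and 15.6 unlabelled. For these members the labelled libraries did not overlap the unlabelled ones, nor any other library of the 36. The members rose 6.84-fold (MTATP6P1), 15.2-fold (MTND2P28) and 18.7-fold (MTCO1P12) with labelling, or log2 fold changes of 2.77 ± 0.35, 3.93 ± 0.48 and 4.23 ± 0.58 (SE, 2 against 2 libraries), with adjusted p of 1.9e-06, 1.2e-06 and 9.8e-06 in edgeR's quasi-likelihood test, Benjamini-Hochberg adjusted. In this comparison 0.886% of all genes tested were called higher.

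MTCO3P12 had 6.44 and 10.0 CPM in labelled MITO libraries (34 and 73 counts), against 0.638 and 0.382 in unlabelled ones (30 and 30 counts). MTND1P23 had 3.03 and 5.49 CPM labelled (16 and 40 counts), against 0.0638 and 0.102 unlabelled (3 and 8 counts). The groups did not overlap for these members either, but neither passed the test, with log2 fold changes of 4.00 ± 2.21 and 5.61 ± 2.66 and adjusted p of 0.64 and 0.59 in edgeR's quasi-likelihood test. DESeq2 called all 5 members higher, and 1.81% of all genes. In bulk libraries, fewer cells with an RNA and less of it per cell cannot be told apart.

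The parents of the copies that passed moved by like amounts in the same fit. The log2 fold change with MITO labelling was 2.77 for MTATP6P1 and 2.76 for MT-ATP6, 3.93 for MTND2P28 and 4.06 for MT-ND2, and 4.23 for MTCO1P12 and 4.43 for MT-CO1. For the copies that did not pass, it was 4.00 for MTCO3P12 and 3.41 for MT-CO3, and 5.61 for MTND1P23 and 3.86 for MT-ND1. Each of these differences is smaller than the standard error of the copy, which was 2.21 for MTCO3P12 and 2.66 for MTND1P23. All 13 mitochondrial mRNAs and both mitochondrial rRNAs were called higher, and the median log2 fold change was 3.98 for the mRNAs and 4.00 for the members. The authors' deposited table lists log2 fold changes of 3.96 for MTATP6P1, 4.71 for MTND2P28, 4.86 for MTCO1P12, 4.09 for MTCO3P12 and 4.69 for MTND1P23 in MITO, in the same direction. Which unlabelled libraries were their controls is not stated in the sources used here. The sizes may thus rest on a control set unlike that of the values above, which is the unlabelled MITO libraries.

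Below labelled MITO the order of the 18 groups was mostly within the spread of 2 libraries. Neighbouring groups in that order were apart in 4 of 17 steps for MTATP6P1, 2 for MTND2P28, 2 for MTCO1P12, 1 for MTCO3P12 and 0 for MTND1P23. MTATP6P1 was lowest in labelled ERM, at 95.9 ± 12.6 CPM (SD, n = 2), and labelled ERM was also the lowest group for MTND2P28 at 24.9 ± 8.36 and for MTND1P23 at 0.0213 ± 0.0301. MTCO1P12 was lowest in unlabelled NLS at 4.91 ± 0.718 and MTCO3P12 in labelled OMM at 0.316 ± 0.132. MTND1P23 had no step apart, and 1 of its libraries stood out, with 192 counts (5.13 CPM) in unlabelled NES 1, against 6 counts (0.204 CPM) in unlabelled NES 2.

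The constructs facing the cytosol gave the opposite direction. In ERM, 3 members fell with labelling, where 7.64% of all genes tested were called lower. MTATP6P1 had 105 and 87.0 CPM in labelled ERM libraries, against 485 and 430 in unlabelled ones. MTND2P28 had 30.9 and 19.02 CPM labelled, against 128 and 120 unlabelled. MTCO1P12 had 9.63 and 1.78 CPM labelled, against 27.2 and 25.9 unlabelled. No labelled library reached an unlabelled one, and the log2 fold changes were -2.25 ± 0.34, -2.31 ± 0.45 and -2.22 ± 0.54 with adjusted p of 6.8e-06, 0.00029 and 0.0034 by edgeR's quasi-likelihood test. Without labelled ERM 2 the value of MTCO1P12 was -1.48 and lost its call.

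In NES, MTATP6P1 and MTND2P28 fell, where 2.47% of all genes were called lower. MTATP6P1 had 193 and 97.2 CPM in labelled NES libraries, against 653 and 495 in unlabelled ones, a log2 fold change of -1.99 ± 0.34 (adjusted p 0.0003, edgeR). MTND2P28 had 41.7 and 16.4 CPM labelled, against 126 and 107 unlabelled, a log2 fold change of -2.01 ± 0.45 (adjusted p 0.0049, edgeR). The values of the other members were -1.61 for MTCO1P12, -0.74 for MTCO3P12 and -4.29 for MTND1P23, the last resting on the library with 192 counts. In a fit of these 4 libraries alone 0 members were called in NES, as were 0% of all genes, so that fit says nothing particular to the members.

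In OMM only MTATP6P1 fell, where 1.97% of all genes were called lower. It had 176 and 163 CPM in labelled OMM libraries, against 424 and 662 in unlabelled ones, a log2 fold change of -1.68 ± 0.33 (adjusted p 0.00097, edgeR). MTND2P28 had 35.99 and 28.0 CPM labelled, against 85.4 and 31.5 unlabelled, so the groups overlapped and its value of -0.87 ± 0.43 did not pass. The number of members called lower in OMM changed without unlabelled OMM 2 and without labelled OMM 1. MT-ATP6, MT-ND2, MT-CO1, MT-CO3 and MT-ND1 had log2 fold changes between -1.59 and -1.37 in OMM, all called.

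In KDEL 0 members passed edgeR's test, as did 0 of all 22680 genes, with 0 members and 45 genes below 0.05 before adjustment. DESeq2 called 0 members and 0 genes. MTATP6P1 had 386 and 458 CPM in labelled KDEL libraries, against 214 and 398 in unlabelled ones. The values of the members were between 0.46 and 1.40 on the log2 scale, and those of the parents between 0.33 and 0.59.

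The nuclear constructs tag RNA at the pore, the lamina, the nucleolus and throughout the nucleus. In NucPore 0 members passed, 0 had a p below 0.05 before adjustment and DESeq2 called 0, where 0% of all genes were called by edgeR. In NIK 0 members passed, 1 (MTND2P28) had a p below 0.05 before adjustment and DESeq2 called 0, where 5.19% of all genes were called in either direction. In NLS 0 members passed, 0 had a p below 0.05 before adjustment and DESeq2 called 0, where 5.23% of all genes were called. In LMA, MTATP6P1 was the only member called, and it was lower, where 4.03% of all genes were called lower. No member was called higher with labelling in any of these constructs. The shares of all genes are edgeR's, and those of DESeq2 in NucPore, NIK and NLS are not given here.

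The levels in the nucleus show the same. MTATP6P1 had 205 and 212 CPM in labelled NLS libraries, against 250 and 182 in unlabelled ones. MTND2P28 had 47.0 and 67.8 CPM labelled, against 65.1 and 33.8 unlabelled. MTCO1P12 had 10.4 and 5.22 CPM labelled, against 5.42 and 4.41 unlabelled. The groups overlapped for all of these, and the log2 fold changes in NLS were -0.051 ± 0.32, 0.21 ± 0.43 and 0.66 ± 0.52, with 95% intervals of -0.69 to 0.59, -0.63 to 1.05 and -0.36 to 1.68. MTCO3P12 had 8 and 13 counts labelled, against 9 and 21 unlabelled, and MTND1P23 had 1 and 4 counts labelled, against 3 and 17 unlabelled. The signs of these NLS values turned with single libraries: MTATP6P1 had 0.16 without unlabelled NLS 1, MTND2P28 -0.11 without labelled NLS 2 and -0.21 without unlabelled NLS 2, MTCO3P12 -0.53 without unlabelled NLS 1 and -0.30 without labelled NLS 2, and MTND1P23 0.51 without unlabelled NLS 2. With the unlabelled libraries of all 9 constructs as controls MTND2P28, MTCO1P12 and MTCO3P12 were below 0 too, at -0.27, -1.05 and -0.23, and MTCO3P12 was at -0.063 under scaling without mitochondrial genes and copies.

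In LMA MTATP6P1 had 149 and 168 CPM labelled, against 377 and 273 unlabelled, a log2 fold change of -1.04 ± 0.33 (adjusted p 0.045, edgeR). That call was lost with RLE size factors, with DESeq2 and with a replicate block, where the value was between -1.02 and -0.98. In the same fit MT-ATP6 had -0.93, MT-CO3 was called lower at -0.84, and 3 of 13 mitochondrial mRNAs were called lower and 1 higher.

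The difference between labelling effects was tested for MITO, NLS and OMM against NES. Labelling in MITO exceeded labelling in NES for 3 members, where 0.728% of all genes were called higher. The log2 differences were 5.93 ± 0.65 for MTND2P28 (adjusted p 1.6e-07), 5.84 ± 0.77 for MTCO1P12 (adjusted p 8.2e-06) and 4.76 ± 0.48 for MTATP6P1 (adjusted p 2.5e-08) in edgeR's quasi-likelihood test. Their parents had 5.91, 6.10 and 4.66. Labelling in NLS exceeded labelling in NES for MTND2P28, by 2.22 ± 0.61 (adjusted p 0.045), and for MTATP6P1, by 1.93 ± 0.46 (adjusted p 0.014, edgeR), where 1.36% of all genes were called higher; MT-ND2 and MT-ATP6 had 2.25 and 2.102, and 12 of 13 mitochondrial mRNAs were called. With scaling without mitochondrial genes and copies, the median of all genes in this comparison moved by -0.20 and only MTATP6P1 was called, and in a fit of these libraries alone 0 were. The shares of all genes called under these settings are given below, with the dependence on processing. For OMM against NES 0 members passed edgeR's test, 0 had a p below 0.05 before adjustment and DESeq2 called 0. There edgeR called 1.76% of all genes in either direction, and the share called by DESeq2 is not given here.

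**Figure D3:**
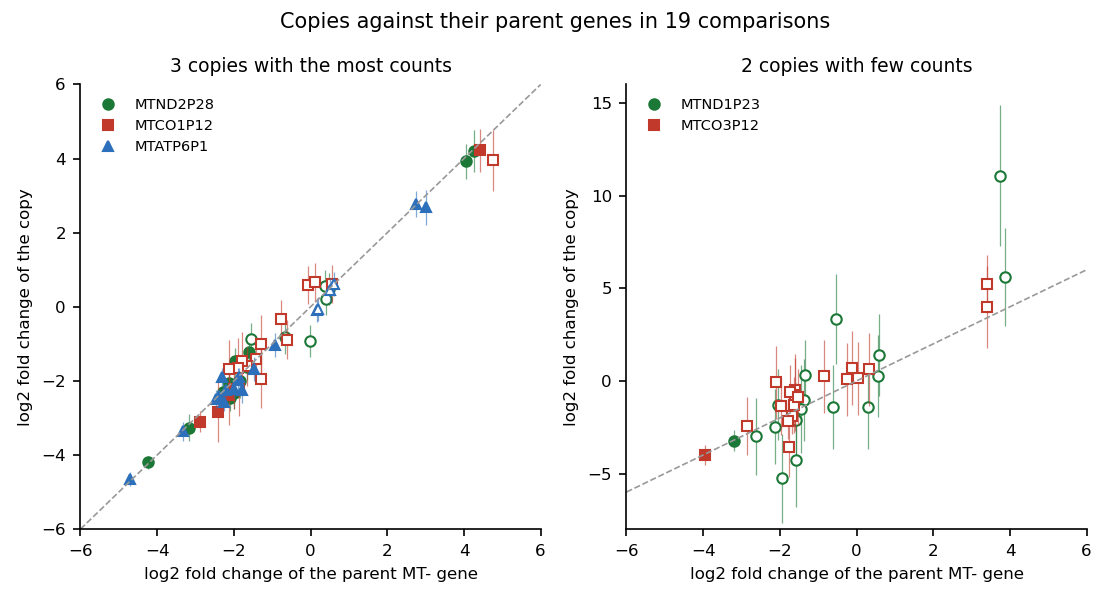
Log2 fold change of each copy (vertical) against that of its parent (horizontal) in labelled against unlabelled comparisons and nuclear against cytosol fraction; bars, SE; filled points passed the test; dashed line, equality. MTATP6P1, MTND2P28 and MTCO1P12 lie close to the line from MITO to the nuclear fraction, and MTCO3P12 and MTND1P23 scatter with wide errors.

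Across 19 such comparisons of all tables, MTND2P28 had the sign of MT-ND2 in 19, MTCO1P12 that of MT-CO1 in 18 and MTATP6P1 that of MT-ATP6 in 17. The median absolute difference between copy and parent was 0.08 on the log2 scale for MTATP6P1, 0.16 for MTND2P28 and 0.27 for MTCO1P12, and the largest 0.46, 0.90 and 0.82. MTCO3P12 had its parent's sign in 16 of 19 and a median difference of 0.60, and MTND1P23 in 14 of 17 and 0.80. The standard errors of the copies were also wider there, with medians of 1.64 for MTCO3P12 and 2.23 for MTND1P23, against 0.32 for MTATP6P1. Comparisons with a common fit share its estimate of spread, so these counts are a description.

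The ratio of copy to parent within a library does not depend on how libraries are scaled. MTATP6P1 had a lowest of 699, a median of 1252 and a highest of 1933 counts per 10000 counts of MT-ATP6 over 96 libraries of all conditions. Every one of the 96 was within 2-fold of the median. The SD of the log2 ratio was 0.27, against 1.43 for the log2 level of MTATP6P1 itself, while counting error alone would give 0.02. The share of MTATP6P1 thus varied far less than its level, yet by more than counting.

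MTND2P28 had 95.4, 302 and 475 counts per 10000 of MT-ND2 as lowest, median and highest, and 91 of 96 libraries were within 2-fold of the median. The SD of its log2 ratio was 0.45, against 1.55 for its level. MTCO1P12 had 1.52, 18.5 and 58.9 per 10000 of MT-CO1, with 78 libraries within 2-fold and an SD of 1.03, against 1.68 for its level. MTCO3P12 had 0.335, 1.43 and 8.82 per 10000 of MT-CO3, with 72 libraries within 2-fold and an SD of 0.89, against 0.89 for its level. MTND1P23 had 0, 0.832 and 39.4 per 10000 of MT-ND1, with 52 libraries within 2-fold, and it had few counts in most. The SD of its log2 ratio was 1.26, against 0.77 for its level. The SD of a level was taken with 0.5 added to CPM. That is more than the median CPM of MTCO3P12 (0.337) and MTND1P23 (0.107), and it narrows the SD of their levels. For these copies the SDs therefore cannot show whether the share varied less than the level. From the lowest to the highest of the 96 libraries, MTCO3P12 spanned 1584-fold in CPM and 26.4-fold in ratio. Among the 5 members, the fewer counts a copy had, the fewer libraries lay within 2-fold of its median. MTCO2P12 was outside this order, with 890 counts in the constructs and 66 libraries within 2-fold. Counting error alone would give an SD of 0.05 for MTND2P28, 0.14 for MTCO1P12, 0.60 for MTCO3P12 and 1.01 for MTND1P23. The SD of the log2 ratio was larger than that for each, and by far for MTND2P28 and MTCO1P12.

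**Figure D4:**
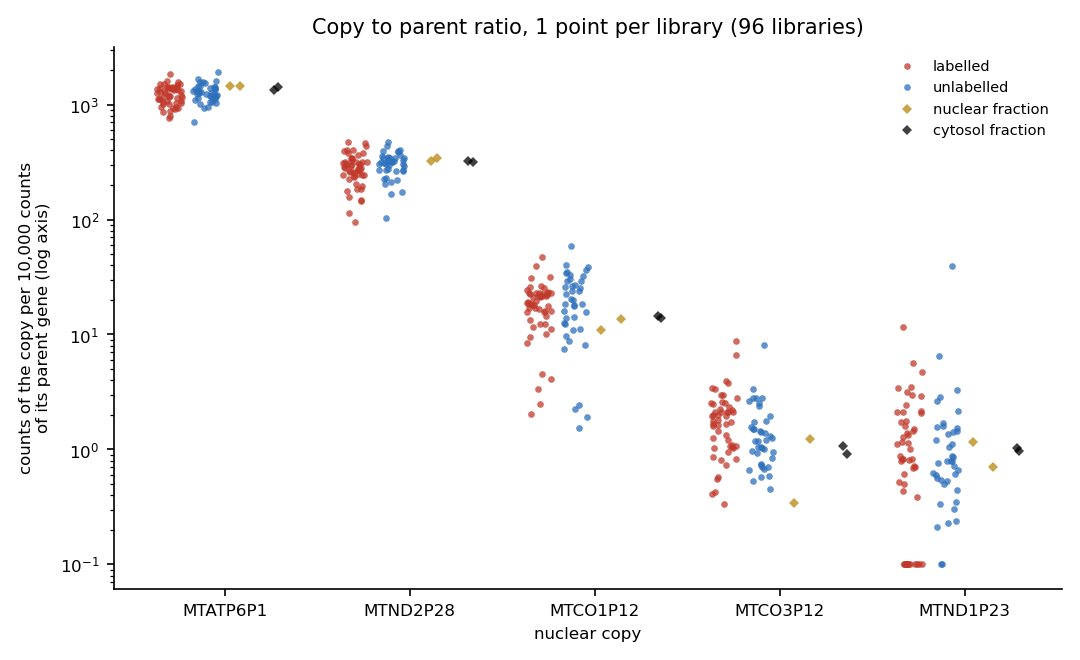
Counts of each copy per 10000 counts of its parent (log axis), 1 point per library over 96 libraries of all tables, with labelled, unlabelled, nuclear fraction and cytosol fraction side by side. MTATP6P1 stays between 699 and 1933 in all 96 libraries, and MTND1P23 spreads from 0 to 39.4, its 15 libraries at 0 being drawn at 0.1.

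In the tests without a replicate block, labelling did not move the ratio past the threshold in any copy. Over the 9 constructs, the mean difference between labelled and unlabelled log2 ratios was -0.14 for MTATP6P1 (SD 0.15 over constructs, lower in 7 of 9), with an exact two-sided permutation p of 0.0074 and an adjusted p of 0.112. It was 0.75 for MTCO3P12 (SD 0.63, higher in 8 of 9), with an exact permutation p of 0.0123 and an adjusted p of 0.116. The values were -0.10 for MTND2P28, 0.09 for MTCO1P12 and 0.26 for MTND1P23, with exact permutation p of 0.549, 0.577 and 0.576. Adjustment was over 30 tests of the 15 copies that passed the filter on low counts, each over 9 and over 4 constructs, and 0 of 30 passed. Among the members, both low p-values belong to differences of opposite sign, down in MTATP6P1 and up in MTCO3P12. Copies that are no members had low unadjusted p-values too, all with a higher ratio in labelled libraries. Over 9 constructs these were MTCO1P28 at 1.16 (exact permutation p 0.0068) and MTATP6P2 at 1.09 (exact permutation p 0.0372). Over the 4 nuclear constructs it was MTND6P4 at 1.48 (exact permutation p 0.0154).

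Over the 4 nuclear constructs the difference was -0.14 for MTATP6P1 (exact permutation p 0.0741, adjusted p 0.317), -0.28 for MTND2P28 (0.34 and 0.862), 0.33 for MTCO1P12 (0.184 and 0.612), 0.44 for MTCO3P12 (0.429 and 0.862) and 0.11 for MTND1P23 (0.903 and 0.903). The value of MTND1P23 fell below 0 without any of 7 single libraries, the lowest being -0.41 without labelled LMA 1, and that of MTCO1P12 over 9 constructs was -0.014 without labelled ERM 1. MTATP6P1 and MTND2P28 were lower in 3 of 4 constructs, and MTCO1P12 and MTCO3P12 higher in 3 of 4. The smallest p that this design allows is 0.00154. A p that misses the threshold does not show that the ratios were equal.

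The fractions compare nucleus and cytosol without labelling, and all 5 copies were lower in the nuclear fractions. Mitochondrial genes took 10.3% and 9.49% of the counts of cytosol fractions, against 1.44% and 1.46% in nuclear fractions. The cytosol fractions thus held mitochondrial RNA as well. MTATP6P1 had 48.6 and 47.9 CPM in nuclear fractions, against 1220 and 1213 in cytosol fractions. MTND2P28 had 14.5 and 16.2 CPM in nuclear fractions, against 285 and 279 in cytosol. MTCO1P12 had 2.89 and 3.75 CPM in nuclear fractions, against 28.7 and 28.1 in cytosol. No nuclear library came near a cytosol one. MTCO3P12 had 0.0188 and 0.132 CPM in nuclear fractions (1 and 7 counts), against 1.36 and 1.14 in cytosol (41 and 37 counts). MTND1P23 had 0.0375 and 0.0568 CPM in nuclear fractions (2 and 3 counts), against 0.498 and 0.431 in cytosol (15 and 14 counts). These low members were apart as well.

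The log2 fold changes, nuclear against cytosol, were -4.66 ± 0.19 for MTATP6P1, -4.20 ± 0.18 for MTND2P28, -3.10 ± 0.29 for MTCO1P12, -4.00 ± 0.54 for MTCO3P12 and -3.22 ± 0.59 for MTND1P23. All passed edgeR's quasi-likelihood test, with adjusted p between 2.7e-08 and 0.00044, in a table where 27.9% of all genes were called lower. The parents had -4.72 for MT-ATP6, -4.25 for MT-ND2, -2.89 for MT-CO1, -3.95 for MT-CO3 and -3.19 for MT-ND1. Copy and parent thus differed by at most 0.21 on this scale, while the parents lay between -4.72 and -2.89. MALAT1 and NEAT1, nuclear RNAs, rose by 4.52 and 4.20, and of 13 mitochondrial mRNAs 12 fell and MT-ND6 rose by 2.71.

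**Figure D5:**
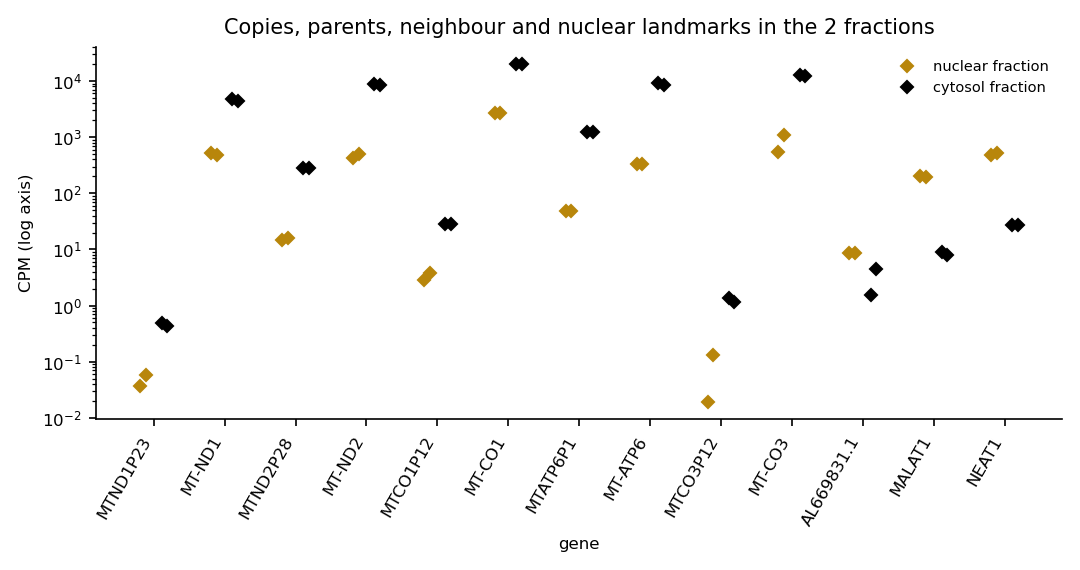
Level (CPM, log axis) of each copy beside its parent, of the neighbour AL669831.1 and of MALAT1 and NEAT1, with nuclear fractions left of cytosol fractions; points, libraries (2 a group). Copies and parents are lower in nuclear fractions, from 48.6 and 47.9 against 1220 and 1213 CPM for MTATP6P1, and AL669831.1, MALAT1 and NEAT1 are higher there.

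The ratios in the fractions were alike. MTATP6P1 had 1441 and 1443 counts per 10000 of MT-ATP6 in nuclear fractions, against 1349 and 1413 in cytosol. MTND2P28 had 342 and 326 per 10000 of MT-ND2 in nuclear fractions, against 319 and 323 in cytosol. MTCO1P12 had 10.9 and 13.6 per 10000 of MT-CO1 in nuclear fractions, against 14.4 and 13.9 in cytosol. The groups were apart for these 3 members by small amounts, at log2 differences of 0.063, 0.056 and -0.22, and 2 against 2 cannot give an exact permutation p below 0.333. MTCO3P12 had -0.29 and MTND1P23 0.09, with overlapping groups.

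Of 6 annotated genes within 100 kb that have a row in the count tables, only AL669831.1, a transcribed pseudogene on the minus strand, passed the filter. It lies at chr1:725885-778626, so its nearest base is close to the limit of that distance. It had 8.59 and 8.71 CPM in nuclear fractions, against 1.56 and 4.44 in cytosol fractions, and rose by 1.52 ± 0.42 (adjusted p 0.0067, edgeR), where the copies fell. With MITO labelling it had a log2 fold change of 2.14, which did not pass. CICP3, AC114498.1 and WBP1LP6 had no count in any library. AL669831.3, which spans the insertion on the minus strand, had at most 4 counts in a construct library, and MIR6723, inside MTCO1P12 on the minus strand, at most 2. Whether counting used the strand is not given in the sources used here, so reads of these antisense genes and of the copies may not have been told apart.

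Copies that are no members gave little to compare. In the fractions 3 of 383 could be tested: MTND4P12 fell by 4.71, MTCO2P12 of the same insertion fell by 4.68, and MTCYBP28 rose by 3.03. Among the constructs 10 other copies could be tested, and 0 were called by edgeR in any labelled against unlabelled comparison. Their median log2 fold change with MITO labelling was nonetheless 3.94.

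Likeness to other genes was ranked among 22675 genes by Pearson's correlation of log2 CPM over 18 group means, which share libraries and depth. MTND2P28 was most like MT-ND2 (0.976), then MT-CO3 (0.958) and MT-CYB (0.956). MTCO1P12 was most like MT-CO1 (0.974), then MT-ND4 (0.964) and MT-CYB (0.961). MTATP6P1 was most like MT-CO2 (0.989) and MT-CO3 (0.988), then MT-ATP6 (0.984). For these members the gene most like the copy was mitochondrial, and for MTND2P28 and MTCO1P12 it was the parent. MTCO3P12 was most like the mitochondrial tRNAs MT-TE and MT-TM (0.977 each) and had its parent at rank 35 (0.872). MTND1P23 was most like MTCO1P2 (0.935) and AC246785.3 (0.930) and had its parent at rank 33 (0.796).

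Total RNA of MITO cells, without poly(A) selection, showed the labelling effect again. MTND2P28 had 1375 and 437 CPM in labelled total RNA, against 46.8 and 50.4 in unlabelled, and rose by 4.22 ± 0.57 (adjusted p 0.0041, edgeR), where 0.563% of all genes were called higher. MTATP6P1 had 2220 and 921 CPM labelled, against 264 and 226 unlabelled, and rose by 2.68 ± 0.48 (adjusted p 0.025, edgeR). MTCO1P12 had 327 and 90.8 CPM labelled, against 24.0 and 3.204 unlabelled, and just missed the threshold at 3.95 ± 0.81 (adjusted p 0.054, edgeR). MTCO3P12 had 55 and 26 counts labelled, against 1 and 3 unlabelled. MTND1P23 had 28 and 6 counts labelled and 0 and 0 unlabelled, so its mean level was at least 11.8-fold higher against a floor of 3 counts per library. All 5 were higher in every labelled library than in either unlabelled one. The calls hung on single libraries: that of MTND2P28 was lost without unlabelled 1 (value 4.16), and that of MTATP6P1 without labelled 1 (1.93), unlabelled 1 (2.79) or unlabelled 2 (2.57). MTCO1P12 was called with RLE size factors, with no filter on low counts, with DESeq2 and with a replicate block.

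Selection for poly(A) did not change the copies past the threshold. Between total RNA and poly(A) RNA of unlabelled MITO cells, 0 members passed edgeR's test, 1 (MTATP6P1) had a p below 0.05 before adjustment and DESeq2 called 0. There edgeR called 1.82% of all genes in either direction, and the share called by DESeq2 is not given here. MTATP6P1 had a log2 fold change of -1.12 ± 0.45 and MT-ATP6 -0.77. Both mitochondrial rRNAs were called higher in total RNA.

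MTATP6P1, MTND2P28 and MTCO1P12 had negative log2 fold changes with labelling in OMM and NES under each drug, as in the untreated lines. Cycloheximide and puromycin stop translation, and CCCP collapses the mitochondrial membrane potential. Over the 12 labelled drug libraries, MTATP6P1 had 41.1, 87.1 and 127 CPM as lowest, median and highest, against 363, 449 and 670 in the 12 unlabelled ones. MTND2P28 had 13.5, 25.2 and 37.1 labelled, against 51.3, 90.1 and 175 unlabelled. Neither member had a labelled library that reached an unlabelled one. MTCO1P12 had 1.86, 4.33 and 7.95 labelled, against 6.62, 15.8 and 42.6 unlabelled, and overlapped. MTCO3P12 had log2 fold changes of -3.55 to -0.61 over the drug comparisons, and MTND1P23 of -5.27 in OMM with cycloheximide to 0.30 in OMM with CCCP, and neither passed edgeR in any of them.

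With cycloheximide 3 members fell in each construct, MTATP6P1 by 1.89 ± 0.24 in OMM and 3.36 ± 0.25 in NES, MTND2P28 by 2.09 ± 0.35 and 3.26 ± 0.37, and MTCO1P12 by 2.38 ± 0.81 and 2.83 ± 0.83. The share of all genes called lower by edgeR was 5.38% in OMM and 7.74% in NES. The calls of MTCO1P12 (adjusted p 0.049 and 0.024, edgeR) did not hold without unlabelled library 2, where its values were -0.92 in OMM and -1.57 in NES. They did not hold either without labelled library 1 (-2.52 in OMM, -3.09 in NES) or labelled library 2 (-2.35 and -2.65), or in a fit of each comparison's own libraries.

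With puromycin and with CCCP, MTATP6P1 and MTND2P28 fell in both constructs. In puromycin MTATP6P1 fell by 2.57 ± 0.24 in OMM and 2.49 ± 0.24 in NES, and MTND2P28 by 1.46 ± 0.34 and 2.05 ± 0.35, where 1.17% of all genes in OMM and 4.57% in NES were called lower. In CCCP MTATP6P1 fell by 1.90 ± 0.24 in OMM and 2.22 ± 0.24 in NES, and MTND2P28 by 1.22 ± 0.34 and 1.63 ± 0.35, where 3.57% and 5.1% were called lower. The parent MT-ATP6 fell by between 1.86 and 3.32 over the drugs. The call of MTND2P28 in OMM with puromycin was lost without labelled 2 (value -1.19), unlabelled 1 (-1.55) or unlabelled 2 (-1.57). With CCCP it was lost in OMM without labelled 1 (-1.07), labelled 2 (-1.39) or unlabelled 1 (-0.77), and in NES without labelled 1 (-1.31).

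Nocodazole, which breaks down microtubules, was followed over 5 times, and the labelled libraries of all times were averaged against the unlabelled libraries of 3 and 30 min. MTATP6P1 had 67.2, 85.6 and 247 CPM as lowest, median and highest in 10 labelled OMM libraries, against 370, 534, 466 and 575 in the 4 unlabelled ones. It fell by 2.26 ± 0.18 in OMM and 2.42 ± 0.18 in NES, and MTND2P28 by 2.47 ± 0.34 and 2.31 ± 0.34, all called by edgeR, where 5.75% of all genes in OMM and 4.94% in NES were called lower. MTND1P23 did not pass the filter on low counts in this table, with 0 to 6 counts in a library, so 4 members were tested.

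MTCO1P12 was uneven in the nocodazole libraries. In the unlabelled OMM libraries it had 33 and 34 counts at 3 min and 34 and 855 counts at 30 min, or 1.93, 1.52, 2.27 and 40.0 per 10000 of MT-CO1. MTCO1P12 had a log2 fold change of -1.64 ± 0.79 in OMM, which did not pass, and its sign turned without the last library. MTATP6P1 in the same 4 libraries had between 1106 and 1580 per 10000 of MT-ATP6. The share of MTCO1P12 per 10000 of MT-CO1 also ranged from 2.03 to 30.8 in labelled OMM, from 4.56 to 31.6 in labelled NES and from 2.45 to 34.3 in unlabelled NES libraries.

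A technical repeat of labelled MITO 2 was set beside that library. MTATP6P1 had 1318 counts per 10000 of MT-ATP6 in the repeat (exact 95% binomial interval 1305 to 1331), against 1589 (1576 to 1603) in labelled MITO 2. MTND2P28 had 330 (325 to 335) in the repeat, against 267 (263 to 271) in labelled MITO 2. MTCO1P12 had 17.8 (17.2 to 18.4) in the repeat, against 18.1 (17.6 to 18.7) in labelled MITO 2. Only the intervals of MTCO1P12 overlap among these 3 copies. MTCO3P12 had 1.49 (1.19 to 1.84) in the repeat, against 0.829 (0.650 to 1.04) in labelled MITO 2. MTND1P23 had 0.465 (0.223 to 0.856) in the repeat, against 1.44 (1.03 to 1.963) in labelled MITO 2. The intervals cover counting error only, and they do not overlap for MTATP6P1, MTND2P28, MTCO3P12 and MTND1P23, so the shares of these members differed between a library and its technical repeat by more than counting.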

How the data were processed

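RNA tagged by APEX2 fusions, and RNA of nuclear and cytosol fractions, was sequenced as stranded pairs of reads. The submitters' processing notes name Trimmomatic, STAR, HTSeq, SAMtools, bedtools and DESeq2 with GRCh38, in no stated role, and how reads with several matches were counted is not given in the sources used here. The authors deposited raw counts per gene, and a table of their own log2 fold changes with p-values, of which only fold changes are used, where named.

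Each count table was fitted separately with edgeR 4.0.16 (R 4.3.3): TMM scaling, filterByExpr, 1 model of group means, and the quasi-likelihood test with Benjamini-Hochberg adjustment over all genes tested, called at an adjusted p under 0.05. Log2 ratios of copy to parent, with 0.5 added to each count, were compared by exact two-sided permutation within constructs. The fit was tested on simulated data. Alternatives were RLE scaling, scaling without mitochondrial genes and copies, no filter on low counts, a replicate block, DESeq2 1.42.0, other sets of controls and leaving out each library. Copies were aligned to parents with Biopython 1.88. The text names the 5 members, their parents, and the 3 genes most like each.

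Replicates are labelled as biological, without cultures being named, so p-values measure the spread between these libraries. Intervals of shares cover counting error only, and those of log2 fold changes rest on the spread between libraries. The members and lists were chosen with earlier results of these data known.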

Additional observations from a re-analysis of the deposited data

Results flagged for a closer look

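These members' labelling effects differed between constructs by a test of the difference itself. Labelling in MITO exceeded labelling in NES by a log2 difference of 5.93 for MTND2P28, 5.84 for MTCO1P12 and 4.76 for MTATP6P1. Labelling in NLS exceeded labelling in NES by 2.22 for MTND2P28 and 1.93 for MTATP6P1. In MITO the fold changes were positive in themselves, whereas in NLS they were 0.21 for MTND2P28 and -0.051 for MTATP6P1, and in NES -2.01 and -1.99. In a fit of the libraries of NLS and NES alone the differences were 2.06 for MTND2P28 and 1.78 for MTATP6P1, and neither passed the test.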

How the results depend on the processing

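Of 40 called values of members, 468 alternative values were computed: 0 changed sign and 34 lost the call. The number of members called moved in these comparisons. With DESeq2 5 were called in MITO (main 3), in MITO total RNA 5 (main 2), in NES with puromycin 4 (main 2) and in LMA 0 (main 1), where DESeq2 called 2.30%, 2.92%, 15.4% and 13.2% of all genes in either direction. With the unlabelled libraries of all 9 constructs as controls, 5 were called in MITO, 2 in OMM (main 1), 2 in LMA, 2 in NIK (main 0) and 1 in NLS (main 0), where 4.46%, 13.4%, 30.5%, 19.7% and 26.5% of all genes were called. With no filter on low counts 2 were called in OMM, 2 in LMA, 1 in NIK and 1 for OMM against NES labelling (main 0), where 3.87%, 6.16%, 4.42% and 1.68% of all genes were called. With only the libraries of a comparison, 0 were called in NES (main 2), 0 for NLS against NES labelling (main 2) and 1 in OMM with CCCP (main 2), where 0%, 2.27% and 8.85% of all genes were called. With scaling without mitochondrial genes and copies 1 was called for NLS against NES labelling, where 3.09% of all genes were, and with RLE size factors 0 in LMA, where 7.496% of all genes were.

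With 1 library left out, the number of members called moved in OMM, LMA and NIK, for OMM against NES labelling and in MITO total RNA. It also moved in OMM with puromycin, OMM with CCCP and NES with CCCP. Such a fit leaves 1 library in a group, and the share of all genes called in it is not given here. In NLS, leaving out 1 library gave -2.65 to 0.51 for MTND1P23, -0.21 to 0.73 for MTND2P28, -0.29 to 0.16 for MTATP6P1 and -0.53 to 1.02 for MTCO3P12. The ratio difference was 0.56 to 0.94 for MTCO3P12 and -0.014 to 0.20 for MTCO1P12 over 9 constructs, and -0.41 to 0.63 for MTND1P23 and -0.18 to -0.10 for MTATP6P1 over the 4 nuclear ones. In NLS the unlabelled libraries of all 9 constructs gave -0.27 for MTND2P28, -1.05 for MTCO1P12 and -0.23 for MTCO3P12, and scaling without mitochondrial genes and copies gave -0.063 for MTCO3P12. With a pseudocount of 5 the fraction ratio difference was 1.05 for MTND1P23 (main 0.09) and 0.90 for MTCO3P12 (main -0.29). The cause of these changes was not tested.

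Same-numbered libraries did not deviate together, with correlations of -0.075 to 0.076 over 18 comparisons, so the numbers do not pair the libraries. With the replicate block 0 members were called in LMA, and the ratio of MTCO3P12 over 9 constructs passed at 0.75 (exact permutation p 0.00108, adjusted p 0.0325).

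Scaling moved the share of all calls that were higher. It was 35.6% in NES and 47.1% with scaling without mitochondrial genes and copies, and by the same change 47.7% and 35.0% in LMA, 53.2% and 36.3% in NLS, 59.0% and 36.3% for NLS against NES labelling, and 45.2% and 28.4% in OMM with puromycin. With RLE it was 84.0%, against 74.0%, for MITO against NES labelling and 30.3% in OMM with puromycin. The median of all genes moved by -0.14 in LMA, -0.15 in NLS and -0.20 for NLS against NES labelling.

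Depth limits MTCO3P12 and MTND1P23: MTND1P23 had under 10 counts in 80 of 96 libraries. Groups of 2 libraries give wide errors, and no read sequences were analysed here.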
